A study of Sus scrofa with 10 samples.

Results

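SLC17A6 encodes the vesicular glutamate transporter VGLUT2, which loads glutamate into synaptic vesicles. In the mammalian brain it is used by glutamatergic neurons of the thalamus, midbrain and hindbrain and by young neurons of the cortex, where SLC17A7 (VGLUT1) becomes the main transporter later. Glutamatergic neurons of different brain regions keep different transcription factors. EMX1, NEUROD2, TBR1 and FEZF2 mark neurons born in the dorsal telencephalon. LHX9, TFAP2D, EN2, POU4F2 and EBF factors are used by neurons of the diencephalon, midbrain or cerebellum, and some of them by peripheral sensory neurons. LHX9 is not limited to these regions, since the paper also reports it in all layers of the mouse medial entorhinal cortex. The neurons described here are the SLC17A6 cells of E60_1 and E60_2, which are 2 of the 3 libraries of whole cells from pig (Sus scrofa) fetuses at embryonic day 60.

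A cell was counted as an SLC17A6 neuron when it held at least 1 UMI (unique molecular identifier, 1 captured transcript) of SLC17A6, at least 2 UMIs of the neuronal genes GNG3 and SNCB together, no UMI of the GABA synthesis genes GAD1 and GAD2, at most 2 UMIs of the microglial genes C1QA and C1QB, and at most 1 UMI of the astrocyte gene AQP4. These limits were met by 143 of the 8171 cells of E60_1 (1.75%, exact Clopper-Pearson 95% confidence interval (CI) 1.48 to 2.06) and by 43 of the 3479 cells of E60_2 (1.24%, CI 0.896 to 1.66). The 186 members were 1.60% of the cells of both libraries and 0.659% of the 28229 cells of the series. The limits used measured values, so the levels of these 8 genes describe the choice and are not results. The members held 278 UMIs of SLC17A6 in E60_1 and 81 in E60_2, and 88 of the 186 held at least 2. SLC17A6 lies on chromosome 2 of Sscrofa11.1, from 37098983 to 37138935.

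Each of the 2 libraries came from 1 fetal brain, and both are labelled as entorhinal cells, dissociated with papain. Cells that share a brain do not replicate the stage, and the intervals and floors given cover counting error only. For comparison, the series held 1 library at E50 from 3 pooled brains, E60_3 with 2 pooled brains, and 3 libraries at E70, all of whole cells. The same limits were met by 999 cells of E50_1, 488 of E60_3, 67 of E70_1, 76 of E70_2 and 349 of E70_3, which was 11.2 to 18.1% of the cells of these libraries, by 3 nuclei of the E70 nucleus library, and by 0 cells of the adult libraries.

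The members held 2836 to 20605 UMIs, with a median of 5001 in E60_1 and 5769 in E60_2 and 2504.5 genes per cell over both. At the edges of the limits, 76 members of E60_1 and 22 of E60_2 held exactly 1 UMI of SLC17A6, and 398 and 131 cells met every other limit but held none. Another 14 and 5 cells failed only through a UMI of GAD1 or GAD2, and 33 and 5 only through AQP4. E60_1 and E60_2 shared 43 cell barcodes, and 2 and 3 members had a barcode that also occurred in another library. No doublets were removed. GNG3 and SNCB were found in 184 and 152 of the 186 members.

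The transcription factors of cortical glutamatergic neurons were at or near 0 in the SLC17A6 neurons. EMX1, EMX2, NEUROD2, TBR1 and FEZF2, and the transporter gene SLC17A7, had 0 UMIs in both libraries. A count of 0 allows up to 3.54 CPM (counts per 1000000 UMIs, summed over the cells of a library, with 3 UMIs as the floor) in E60_1 and up to 10.1 CPM in E60_2, or 1.61% of the 186 members. In the cells meeting the same limits in the other 5 fetal libraries of whole cells, NEUROD2 was at 29.9 to 115 CPM, TBR1 at 16.3 to 36.5 CPM and EMX1 at 6.79 to 64.3 CPM. NEUROD6 was at 17.7 CPM in E60_1 and 0 in E60_2, against 73.4 to 578 CPM in the other 5. EMX2 and SLC17A7 set the libraries apart less. EMX2 ranged from 2 UMIs in E70_2 to 192 in E60_3, and SLC17A7 from 0 in E70_1 to 127 in E70_3. Every one of the other 5 libraries had a measured level above both E60_1 and E60_2 for EMX1, NEUROD2, TBR1, FEZF2 and NEUROD6. EMX1 in E70_1 (6.79 CPM) and FEZF2 in E70_2 (6.10 CPM) were under the 10.1 CPM that a 0 allows in E60_2. Their order against E60_2 is therefore open. No test was made of this order, because E60_1 and E60_2 were set apart with such results known. The share of all genes in this order was not counted.

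The cortical label thus had no counterpart in the cortical factors of these neurons, nor in those of all cells of both libraries. Over all 8171 cells of E60_1, NEUROD2 had 30 UMIs and TBR1 had 1, and over all 3479 cells of E60_2 they had 4 and 1. Over the 2696 cells of E60_3 they had 857 and 517 UMIs. The cells are therefore called here by their transporter and not as entorhinal neurons.

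Of the 11 cortical factors on the list, 4 were detected in the members of E60_1 and 3 in those of E60_2. LHX2, a LIM homeobox factor that is also used outside the cortex, accounted for most of these UMIs, at 41.3 CPM in E60_1 and 57.1 CPM in E60_2. Without LHX2 and BCL11B, 16 of the 186 members held a UMI of any of the 9 remaining factors, and 15 of them were from E60_1. BCL11B was found in 11 members.

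**Figure D1:**
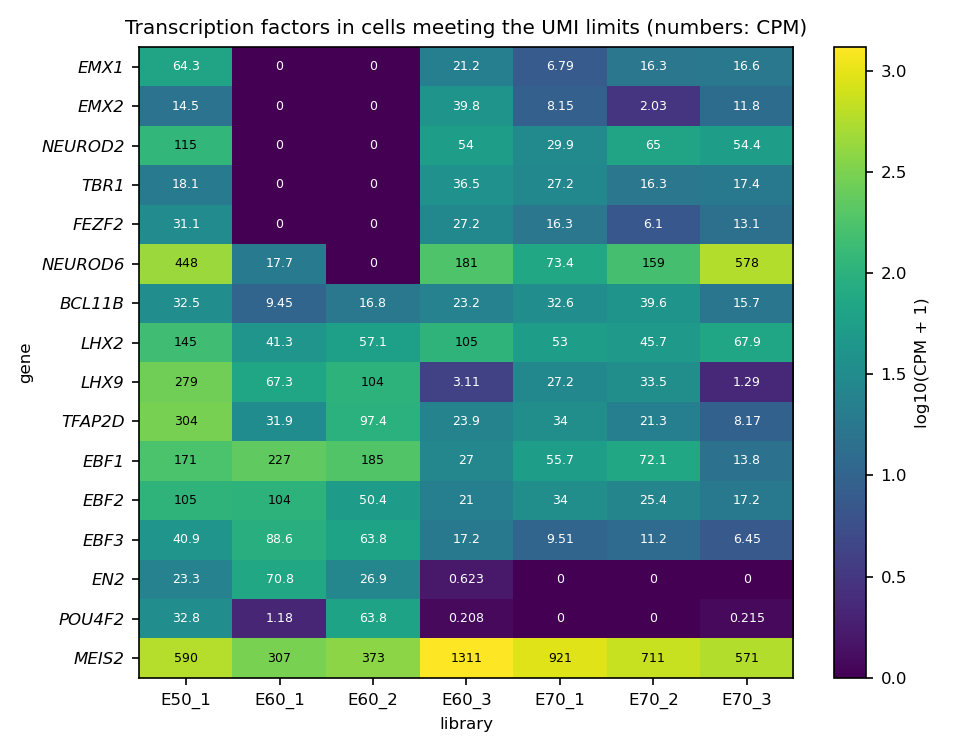
Transcription factors in the cells that met the UMI limits, by library. Rows are genes, columns the 7 fetal libraries of whole cells, numbers the CPM of the summed cells and colours log10(CPM + 1). EMX1, EMX2, NEUROD2, TBR1 and FEZF2 were 0 in E60_1 and E60_2, whereas EBF1 was at 227 and 185 CPM there and at 13.8 to 171 CPM in the other 5 libraries.

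Of the 47 factors of the diencephalon and midbrain list, 32 were detected in E60_1 and 23 in E60_2, and 14 and 17 of them were at 20 CPM or more. Their summed level was 1498 CPM in E60_1 and 1481 CPM in E60_2. The cells meeting the same limits elsewhere had sums of 2550 CPM in E50_1 and 1780 CPM in E60_3. In E70_1, E70_2 and E70_3 the sums were 1625, 1371 and 811 CPM. The sum with MEIS2 included thus did not separate the members from them, but MEIS2 weighed unequally in it. MEIS2 made up 6316 of 8576 UMIs in E60_3 and 678 of 1196, 700 of 1349 and 2656 of 3771 in E70_1, E70_2 and E70_3. Its part was 260 of 1269 UMIs in E60_1, 111 of 441 in E60_2 and 5810 of 25127 in E50_1. Sums without MEIS2 were not compared, so the libraries may lie in another order for the rest of the list. In GABAergic neurons of the same libraries all 47 factors summed to 1411 CPM in E60_1, below the members, and 1919 CPM in E60_2, above them. Microglia of the same libraries were cells with at least 10 UMIs of C1QA and C1QB and none of GNG3 and SNCB. They were taken as a guide to free RNA, and the list summed to 494 and 885 CPM in them. The limit on GNG3 and SNCB left out microglia with free RNA of these genes, so the guide may be low. It is also no measure of free RNA for genes that microglia express themselves.

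The early B-cell factors EBF1, EBF2 and EBF3 act in migrating and differentiating neurons. EBF1 was at 227 CPM in E60_1 and 185 CPM in E60_2 and was found in 71 members (38.2%, CI 31.2 to 45.6), against 8.29% and 13.2% of the microglia. EBF2 was found in 54 members and EBF3 in 64, and 124 of the 186 members held at least 1 of the 3. EN2, an engrailed factor of the midbrain and anterior hindbrain, was found in 41 of 143 members of E60_1 and 7 of 43 of E60_2. EN1 had 0 UMIs in both.

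LHX9, a LIM homeobox factor of thalamic, pretectal and midbrain neurons among others, was at 67.3 CPM in E60_1 and 104 CPM in E60_2. It was found in 55 members (29.6%, CI 23.1 to 36.7) and in 1.00% and 0.895% of the microglia. LHX2 was found in 36 members (19.4%, CI 13.9 to 25.8), against 0.546% and 0% of the microglia. TFAP2D, an AP-2 factor of the dorsal midbrain, was at 31.9 CPM in E60_1 and 97.4 CPM in E60_2 and was found in 32 members. These 3 genes overlapped in part: 21 members held LHX9 and LHX2, which is 38.2% of the LHX9 cells and 58.3% of the LHX2 cells, and 10 members held all 3. No UMI of any of them was found in 104 of the 186 members.

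Several factors separated the 2 libraries. POU4F2 (BRN3B) was found in 12 of 43 members of E60_2 and 1 of 143 members of E60_1, and POU4F3 in 6 and 0. At least 1 of ZIC1 to ZIC5, zinc finger factors of the dorsal midline and cerebellum, was found in 20 members of E60_2 and 17 of E60_1. ZIC2 was at 94.02 CPM in E60_2 and 14.2 CPM in E60_1. In E60_2 the ZIC genes were also found in GABAergic neurons, at 60.1 CPM for ZIC2, and in microglia, at 12.8 CPM. LHX1 and PENK were the reverse, with 18.9 and 66.1 CPM in E60_1 and 0 UMIs of both in E60_2. With 1 brain each, library and brain cannot be told apart.

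Some factors on the list were no more frequent than in microglia. TCF7L2, which marks thalamic neurons, was found in 20.4% of the members (CI 14.9 to 26.9) but in 29.2% and 42.5% of the microglia, and NR4A2 in 15.1% of the members and 19.3% and 23.7% of the microglia. Neither gene was thus found more often in the members than in microglia. In E60_1, NR4A2 was at 67.3 CPM in the members and 43.1 CPM in the microglia, and 9 of the 13 members with TH (tyrosine hydroxylase) held it. MEIS2 was found in 61 of 143 members of E60_1, where 5.19% of the microglia held it, and in 27 of 43 of E60_2, where 38.0% did. Of the 9 hypothalamic factors on the list, 0 UMIs were found in E60_1 and 2 in E60_2.

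Most members held a neuropeptide transcript. Of 18 peptide precursors, at least 1 was found in 164 of 186 members and at least 2 in 117. At least 1 of the 24 genes of the neuropeptide list was found in 139 of 143 and 41 of 43 members. The GABAergic neurons reached 258 of 271 and 55 of 69, and the microglia 223 of 1098 and 96 of 447. Of the cells meeting the limits elsewhere, 858 of 999 in E50_1, 387 of 488 in E60_3 and 268 of 349 in E70_3 held one. In E70_1 and E70_2 it was 66 of 67 and 74 of 76. TAC1, the precursor of substance P, was at 647 CPM in E60_1 and 507 CPM in E60_2 and was found in 82 members (44.1%, CI 36.8 to 51.5). SST, which encodes somatostatin, was at 452 CPM in E60_1 and 3872 CPM in E60_2, but the share of members was closer, with 44 of 143 and 19 of 43. In E60_2 the highest member held 241 of 1153 SST UMIs and the 3 highest held 50.8%. SST and TAC1 were found together in 32 members, which is 50.8% of the SST cells and 39.0% of the TAC1 cells. Fewer than 5% of the microglia of either library held SST, with 1.18% and 4.70%, and under 1% held TAC1.

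CCK (cholecystokinin) was at 601 CPM in E60_1, where 34 of 143 members held it, and at 275 CPM in E60_2, where 7 of 43 did. A single member of E60_2 held 39.0% of its CCK UMIs there, and without that cell the level was 172 CPM. The 3 highest members held 82.9% of the CCK UMIs in E60_2 and 43.4% in E60_1. ADCYAP1 (PACAP) and the neurotrophin BDNF were each found in 36 members, at 67.3 and 36.9 CPM for ADCYAP1 in E60_1 and E60_2. NPY was concentrated in a few cells, with 583 UMIs in 12 members of E60_1 and 5 UMIs in 3 members of E60_2, and the 3 highest cells of E60_1 held 76.2% of them. PENK, the enkephalin precursor, was found in 13 members of E60_1 and in none of E60_2, and CRH in 7 and none. VIP had 0 UMIs in both.

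In the cells that met the same limits elsewhere, TAC1 was at 0 to 35.4 CPM, CCK at 1.02 to 56.8 CPM and SST at 1.02 to 185 CPM, with the highest value of each in E50_1. E60_1 and E60_2 were above all 5 of these libraries for TAC1, CCK, SST, EBF1, EBF3 and the neurofilament gene NEFL. The share of all genes in this order was not counted. NEFL was at 805 and 779 CPM in E60_1 and E60_2 and at 1.36 to 318 CPM in the others. E50_1 came closest, and its SLC17A6 cells had more LHX9 (279 CPM) and TFAP2D (304 CPM) than the members.

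**Figure D2:**
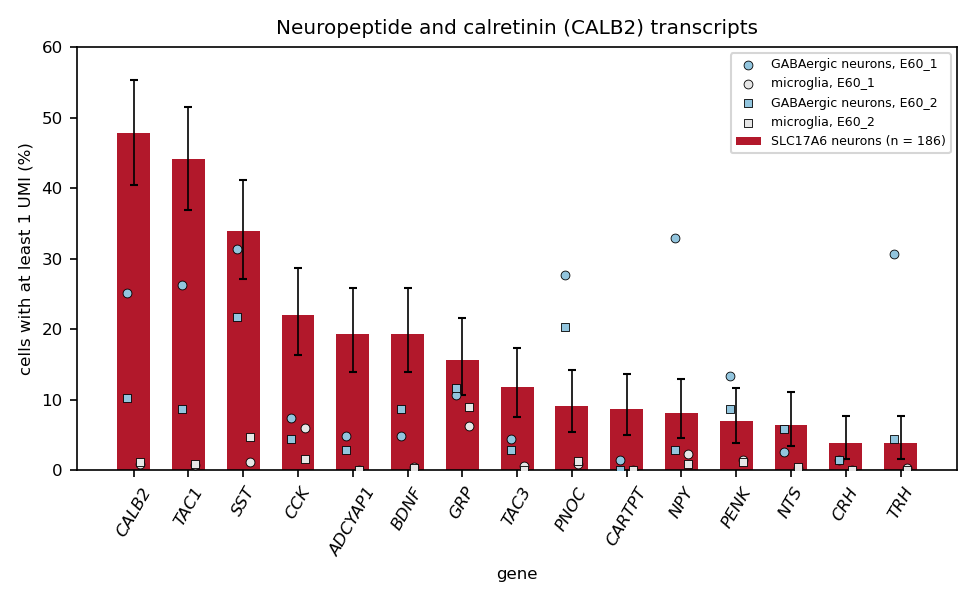
Share of cells with at least 1 UMI of neuropeptide genes, BDNF and CALB2. Bars are the 186 SLC17A6 neurons with exact 95% CI, blue points the GABAergic neurons and grey points the microglia of E60_1 (circles) and E60_2 (squares). CALB2, TAC1 and SST were found in 47.8%, 44.1% and 33.9% of the members and in under 5% of the microglia.

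The SLC17A6 neurons were then compared with the GABAergic neurons of the same libraries, which asks what sets the neurons apart within a brain once the dissociation and the capture are shared. GABAergic neurons held a UMI of GAD1 or GAD2 and none of SLC17A6 and met the other limits, and numbered 271 in E60_1 and 69 in E60_2, with medians of 3975 and 5093 UMIs. With at least 3 UMIs of GNG3 and SNCB, 239 and 44 of them were left, against 138 and 41 SLC17A6 neurons. More GABAergic neurons of E60_2 thus lay at the limit on neuronal genes. The groups under that stricter limit were not tested. UMIs were summed per library and group, and the 4 sums were tested with the quasi-likelihood test of edgeR, with the library as a block and the 8 genes of the limits left out. Of 8609 genes tested, 3 were higher in the SLC17A6 neurons at an adjusted p under 0.05 (0.0348%) and 0 were lower, although 319 and 358 genes passed an unadjusted p of 0.05 in each direction and DESeq2 called 9 higher and 10 lower. Genes called and not called are given with their values in each library.

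CCK was higher in the SLC17A6 neurons, with 601 against 34.0 CPM in E60_1 and 275 against 17.8 CPM in E60_2. Its log2 fold change was 4.09 ± 0.28 (SE) with an adjusted p of 0.0202 by edgeR. In E60_2 the 3 highest members held 82.9% of the CCK UMIs. CCK lies on chromosome 13, from 25940674 to 25945879. NRN1, which encodes the neurite outgrowth protein neuritin, was higher too, with 430 against 36.3 CPM in E60_1 and 409.7 against 20.04 CPM in E60_2, and a log2 fold change of 3.85 ± 0.30 (SE, edgeR adjusted p = 0.0202). NRN1 lies on chromosome 7, from 3682568 to 3691328, and was found in 152 of the 186 members. The third called gene, ENSSSCG00000035649, has no symbol in the tables used here and lies outside the rule for named genes. Its levels were 492 against 38.6 CPM in E60_1 and 285 against 15.6 CPM in E60_2. CCK and NRN1 passed the threshold in all 8 alternative analyses that gave a test.

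Shares of cells were compared after every cell was thinned to 3000 UMIs, which left out 4 SLC17A6 and 32 GABAergic neurons. NRN1 was then found in 65.9% of the SLC17A6 neurons (CI 58.6 to 72.8), 4.87% of the GABAergic neurons (CI 2.75 to 7.91) and 0.469% of the microglia. CCK was found in 19.8%, 5.19% and 2.55%, respectively.

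Among the diencephalic and midbrain factors, 18 of 47 genes passed the filter on low counts and 0 were called. LHX9 was at 67.3 against 2.32 CPM in E60_1 and at 104 against 0 CPM in E60_2, where it was at least 15.6-fold higher when the 0 is set to 3 UMIs. Its log2 fold change of 5.41 ± 0.65 (SE) had an adjusted p of 0.0899 by edgeR, and it passed the threshold in 7 of 8 alternatives. LHX2 was at 41.3 against 0.772 CPM and at 57.1 against 0 CPM, at least 8.55-fold, with an adjusted p of 0.0899 by edgeR and 7 of 8 alternatives past the threshold. TFAP2D was at 31.9 against 2.32 CPM and 97.4 against 11.13 CPM, and passed in 5 of 8. After thinning, LHX9 was found in 18.1% of the SLC17A6 neurons (CI 12.8 to 24.5) and in 0 of 308 GABAergic neurons, which allows a share of up to 0.974%.

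The other factors did not follow this pattern. GATA3, a factor of midbrain and hindbrain GABAergic neurons, had 0 UMIs in the SLC17A6 neurons of both libraries, against 59.5 and 109 CPM in the GABAergic neurons, which is at least 16.8-fold and 10.8-fold lower. Its adjusted p was 0.0907 by edgeR. LHX1 was at 18.9 against 86.5 CPM and at 0 against 28.9 CPM. EBF1 was at 227 against 416 CPM in E60_1 and 185 against 327 CPM in E60_2, and EN2 at 70.8 against 90.3 and 26.9 against 15.6 CPM. The median log2 fold change of the 18 genes was -0.21, beside -0.01 over all genes tested.

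Genes that were at least 2-fold higher in the SLC17A6 neurons of both libraries were 0.894% of all genes tested, and those at least 2-fold lower were 1.13%. Of the 24 genes of the neuropeptide list, 15 passed the filter, 6 were at least 2-fold higher in both libraries (CCK, TAC1, ADCYAP1, CARTPT, NTS and BDNF) and 1 was at least 2-fold lower (PENK). The NTS difference rested on 1 cell in each library, without which NTS was at 28.8 and 24.4 CPM, against 28.6 and 31.2 CPM in the GABAergic neurons. The median log2 fold change of the 15 was 1.27. Only CCK was called among them. ADCYAP1 was at 67.3 against 13.1 CPM and 36.9 against 4.45 CPM, and TAC1 at 647 against 271 CPM and 507 against 57.9 CPM. TAC1 had an adjusted p of 0.358 by edgeR and passed the threshold in 6 of 8 alternatives. PENK was at 66.1 against 471 CPM in E60_1 and at 0 against 62.3 CPM in E60_2.

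SST lay in opposite order in the 2 brains. It was at 452 CPM in the SLC17A6 neurons and 900 CPM in the GABAergic neurons of E60_1, and at 3872 and 198 CPM in E60_2, with an adjusted p of 0.776 by edgeR. NPY was at 688 against 734 CPM and 16.8 against 22.3 CPM.

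Of the transmitter genes other than those of the limits, SLC32A1, which loads GABA and glycine into vesicles, was at 3.54 against 140 CPM in E60_1 and at 0 against 93.5 CPM in E60_2. Its log2 fold change was -5.54 ± 0.57 (SE, edgeR adjusted p = 0.0653). The limit on GAD1 and GAD2 bears on this gene, and its part was not tested. Calretinin (CALB2) was found in 89 of the members and was at 437 against 147 CPM and 73.9 against 26.7 CPM. CALB1, the calbindin of many GABAergic neurons, was at 22.4 against 940.5 CPM in E60_1 and 23.5 against 11.13 CPM in E60_2.

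Among cytoskeletal genes, PRPH, an intermediate filament protein of peripheral and cranial nerve neurons, was at 79.1 against 2.32 CPM in E60_1 and 107 against 0 CPM in E60_2, at least 16.1-fold. Its adjusted p was 0.0899 by edgeR, and it passed in the 7 alternatives that tested it. PRPH was found in 15 members, and 1 member of E60_2 held 81.2% of the UMIs there. MAP1A and NEFH were also at least 2-fold higher in both libraries. None of the 20 other cytoskeletal genes tested was at least 2-fold higher or lower in both.

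Receptor and synapse genes were also compared. Of 21 glutamate receptor genes tested, GRM4 was at least 2-fold higher in both libraries (27.2 against 12.4 CPM and 36.9 against 6.68 CPM), and of 16 GABA and glycine receptor genes, 32 axon guidance genes and 18 cadherins, 0 passed that limit in either direction. Of 28 ion channel genes, CACNA2D1, an auxiliary subunit of voltage-gated calcium channels, was at 378 against 69.5 CPM and 208 against 93.5 CPM. Of 23 genes of synaptic vesicles and release, the presynaptic adhesion gene NRXN3 was at 80.3 against 209 CPM and 23.5 against 261 CPM. These values did not pass the test.

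**Figure D3:**
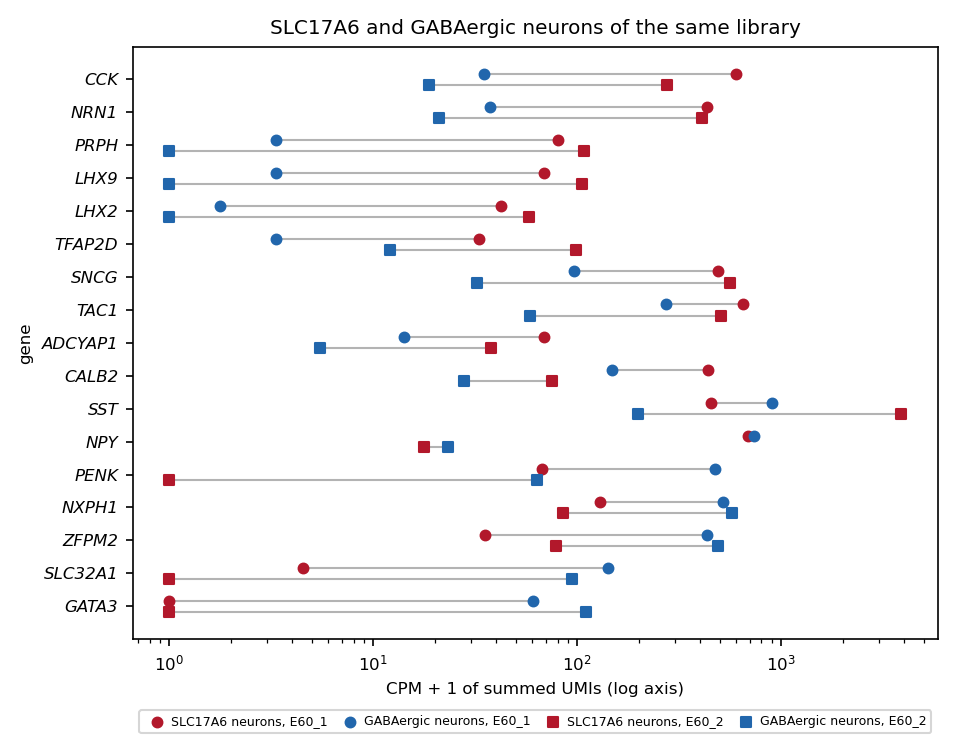
Levels in SLC17A6 neurons (red) and GABAergic neurons (blue) of E60_1 (circles) and E60_2 (squares), as CPM + 1 of summed UMIs on a log axis. Lines join the groups of a library. CCK and NRN1 passed the test, and SST lay in opposite order in the 2 libraries, with 452 against 900 CPM and 3872 against 198 CPM.

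RNA of other cell classes was unequal between the groups. The GABAergic neurons of E60_2 held 557 CPM of the 5 endothelial markers and 1216 CPM of the 7 astrocyte and radial glia markers, against 3.36 and 423 CPM in the SLC17A6 neurons of that library. In E60_1 the endothelial sums were 98.1 and 43.7 CPM. HBB, the beta globin gene, was at 11545 and 7730 CPM in the SLC17A6 neurons of E60_1 and E60_2, at 20819.7 and 43354 CPM in the GABAergic neurons, and at 17419 and 27401 CPM in the microglia. The 8 microglial markers summed to 47.2 and 47.0 CPM in the SLC17A6 neurons, against 6374 and 6035 CPM in the microglia, and the oligodendroglial markers to 132 and 36.9 CPM. Without the cells that held a UMI of PECAM1, PDGFRB, CSF1R or OLIG1, or over 1% of globin UMIs, 122 and 39 SLC17A6 neurons and 228 and 43 GABAergic neurons were left, and 18 genes were called higher and 19 lower, including CCK and NRN1. The part of this RNA in the other differences was not tested.

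The members differed among themselves. They were clustered on 1500 variable genes, leaving out all genes of the lists, after centring each library. This gave 10 clusters at a resolution of 1, of 10 to 32 cells, and 4 at a resolution of 0.5. The clusters are described by their leading genes, which were picked after their values were seen, and no test was made of them.

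A cluster of 24 members, 21 of E60_1 and 3 of E60_2, was led by ALDH1A1, TH, SLC6A3, SLC10A4, DDC and SLC18A2. TH, DDC, SLC18A2 and SLC6A3 encode the synthesis, vesicular loading and reuptake of dopamine. TH was at 439 CPM in this cluster and was found in 9 of its cells, SLC6A3 in 6, DDC in 6, SLC18A2 in 8 and NR4A2 in 10. Of all 186 members, 6 held all 4 dopamine genes. These 6 were from E60_1 and in this cluster, whereas 15 of its 24 cells held none of the 4. Over all members TH was at 93.3 CPM in E60_1, with 79 UMIs in 11 cells, and at 6.72 CPM in E60_2, with 2 UMIs. TH was also found in the GABAergic neurons of E60_1, with 40 UMIs in 3 cells (30.9 CPM), and in the cells of E50_1 that met the limits, with 106 UMIs (10.8 CPM). It had 0 UMIs in the microglia and in the cells of E60_3 and E70 that met the limits. SLC6A3 had 53 UMIs in the members of E60_1, 32 in the GABAergic neurons of E60_1 and 55 in the cells of E50_1. NPY was found in 3 cells of this cluster.

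A cluster of 10 members, 6 of E60_1 and 4 of E60_2, had a median of 15107.5 UMIs, or 2.85 times that of the members of its libraries. It was led by ANXA2, PRPH, IGFBP5, NTS and TRPM8. TRPM8 is the cold-sensing channel of sensory neurons, NGFR a neurotrophin receptor and SCN7A a sodium channel gene of sensory ganglia. PRPH was found in 8 of the 10 cells, SCN7A in 7, TRPM8 in 6, NGFR in 6 and EBF1 in 10. TRPM8 was at 216 CPM in these cells and at or below 14.2 CPM in every other cluster. LHX2 and CCK had 0 UMIs here, and LHX9 was found in 1 cell. POU4F1, a factor of sensory neurons, had 0 UMIs in all members and 1 UMI in the cells meeting the limits in E50_1, where POU4F2 had 323.

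A cluster of 10 members, all of E60_1, was led by CXCL14, CALCR and LMO4. CALCR, the calcitonin receptor gene, was found in 8 of the 10 cells and was at 610 CPM, against 0 to 89.5 CPM in the other clusters. It was at 1792 and 1637 CPM in the microglia of E60_1 and E60_2, of which 98.4% and 97.8% held it, and the part of microglial RNA in this cluster was not tested. SHOX2, a homeobox factor, was found in 6, and LMO4 in 9. LHX9, LHX2, TFAP2D, EN2, MEIS2 and SST had 0 UMIs in these cells, and EBF1 and CCK were found in 8 and 7.

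A cluster of 17 members, 16 of E60_1 and 1 of E60_2, was led by PENK, TAC1 and LHX1. PENK was at 616 CPM and found in 6 of the 17 cells, TAC1 at 2725 CPM in 8 and CCK at 1698 CPM in 4. The cluster with TFAP2D and SST among its leading genes had 24 cells of E60_1 and 4 of E60_2, with SST at 3255 CPM. LHX9 was at 0 to 192 CPM in the 10 clusters and was found in 9 of them.

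Of the remaining clusters, 2 carried RNA of other classes. A cluster of 32 cells, 17 of E60_1 and 15 of E60_2, was led by globin genes, with 5.61% of its UMIs from them. A cluster of 21 cells was led by MBP, VIM and SPARCL1, with MBP at 439 CPM and FLT1 at 94.6 CPM. The other 3 clusters, of 12, 13 and 19 cells, had no list gene among their first 5 leading genes except GABRG1, a GABA receptor subunit.

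**Figure D4:**
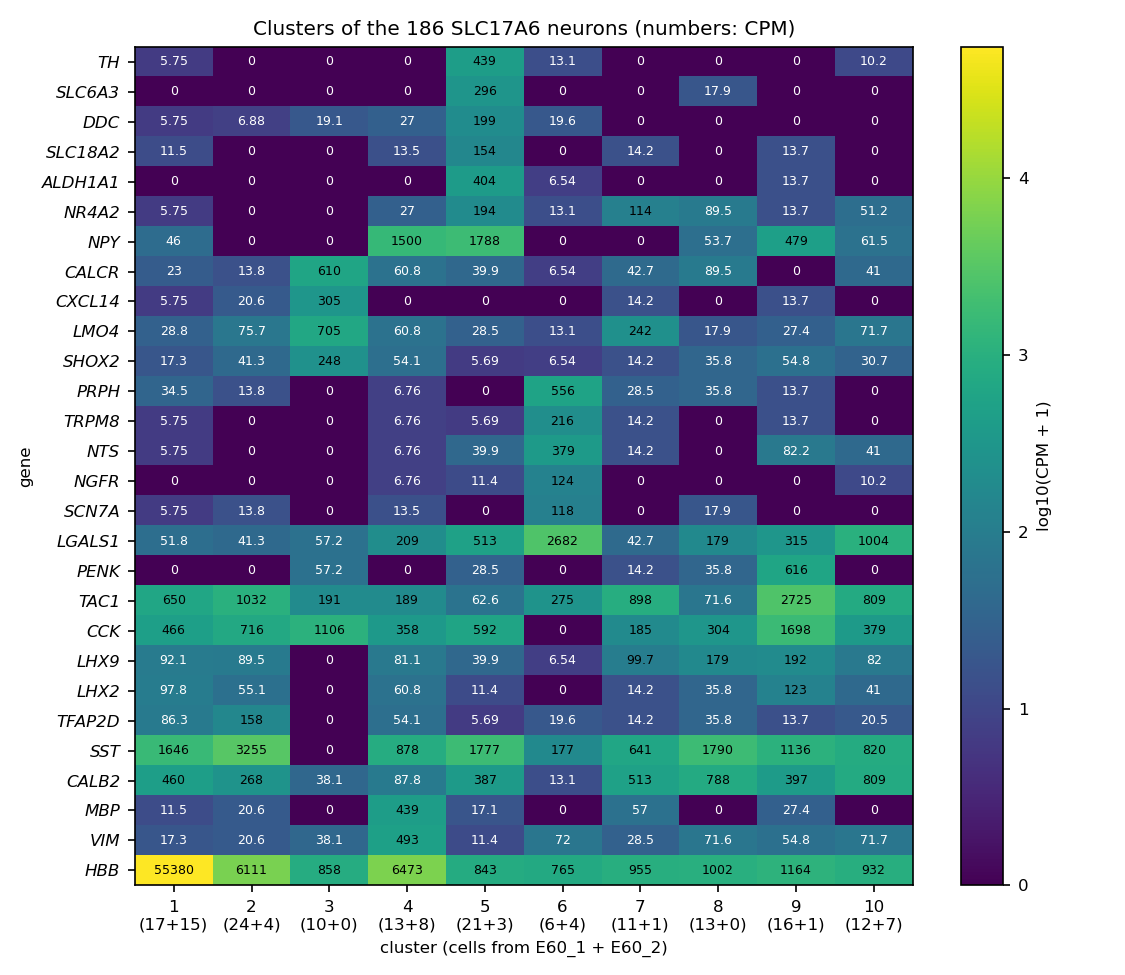
Levels of leading and listed genes in the 10 clusters of SLC17A6 neurons. Rows are genes, columns clusters with the number of cells from E60_1 and E60_2, numbers CPM and colours log10(CPM + 1). TH was at 439 CPM in cluster 5, CALCR at 610 CPM in cluster 3 and TRPM8 at 216 CPM in cluster 6.

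Finally, the cells meeting the limits at E60 and E70, the stages with replicate libraries, were compared in sums of 3 libraries each. Of 9932 genes tested with edgeR, 0 were higher and 0 lower at an adjusted p under 0.05 (0.00% each), with a smallest adjusted p of 0.276, while 616 and 845 passed an unadjusted p of 0.05 and DESeq2 called 224 and 402. E60_1 and E60_2 correlated across genes at r = 0.90 (log2 CPM) and with E60_3 at 0.70 and 0.67. E70 was split likewise, with 0.93 between E70_1 and E70_2, and 0.74 and 0.76 between these and E70_3. Without E60_3, 678 genes were called higher and 460 lower at E60, and without E70_3, 33 and 629. Stage and the makeup of the libraries cannot be told apart here.

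Genes whose 3 E60 libraries all lay above the 3 E70 libraries were 4.73% of those tested, and those all below were 8.28%. Of the diencephalic and midbrain factors, 14 were tested and 3 did not overlap, all higher at E60 (TCF7L2, EBF3 and RORA). TCF7L2 was, as given above, no more frequent in the members than in the microglia of E60_1 and E60_2. The part of free RNA in its order was not tested. EBF3 was at 88.6, 63.8 and 17.2 CPM in E60_1, E60_2 and E60_3 and at 9.51, 11.2 and 6.45 CPM in E70_1, E70_2 and E70_3. Of the neuropeptides, 10 were tested and NPY did not overlap, at 688, 16.8 and 16.4 CPM against 0, 2.03 and 4.30 CPM. Of 9 cortical factors tested, 0 were without overlap. LHX9 did overlap, with 67.3, 104 and 3.11 CPM at E60 and 27.2, 33.5 and 1.29 CPM at E70.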

How the data were processed

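Whole cells and nuclei of the pig medial entorhinal cortex were captured with 10X Genomics version 2 chemistry. The authors mapped the reads with Cell Ranger (2.20 per the labels) to Sscrofa11.1, counting introns, and deposited raw UMI counts per gene and cell for each library. Library totals ranged from 2336865 to 55755512 UMIs. Counts of 22452 genes were used as deposited, and 987 gene IDs were named by a RefSeq table of the same build.

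The members and gene lists were chosen with earlier results of these data known. The 27 lists held 443 genes, of which 431 were in the files. UMIs were summed per library and cell group and tested with edgeR 4.0.16 (TMM, filterByExpr, two-sided, Benjamini-Hochberg adjustment). The SE of an edgeR log2 fold change was its absolute value divided by the square root of the F statistic. Genes called 2-fold used log2 CPM with a prior count of 2. The 2 sums of a library came from the same brain, so the library was a block. Named genes were examples from the lists, and up to 12 called genes with a symbol per direction. Alternatives used DESeq2 1.42.0, no filter, no block, stricter limits, or thinned cells. Clusters came from scanpy 1.11.5 (12 components, 12 neighbours, Leiden). Shares carry exact 95% intervals. On simulated counts the tests were checked to recover changed genes. The origin of replicate libraries from separate litters was not given, so p-values measure the spread between these samples.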

Additional observations from a re-analysis of the deposited data

How the results depend on the processing

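The numbers of genes called between SLC17A6 and GABAergic neurons (3 higher and 0 lower by edgeR) depended on the analysis, and the cause was not tested. They were 9 and 10 with DESeq2, 71 and 176 without a filter, 6 and 5 without the replicate block, 44 and 71 with at least 2 UMIs of SLC17A6, 19 and 26 without cells over 3 times the median depth, 18 and 19 without cells with UMIs of another class, 14 and 15 with thinned cells, and 4 and 6 when all fetal libraries shared the spread. The 3 genes of the main analysis were among those called in each of these. Leaving out a library left no test. NPY turned to 0.72 (log2) with at least 2 UMIs of SLC17A6, EBF1 to 0.074 without cells with UMIs of another class, and SST to -0.96 in E60_1 alone (4.26 in E60_2 alone).

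Between E60 and E70, DESeq2 called 224 and 402. The calls without 1 library ranged from 0 to 678 higher and from 0 to 629 lower, and were above 0 only without E60_3 or E70_3. With the replicate number as a block, 0 genes were called in each direction by edgeR (157 and 320 at an unadjusted p under 0.05). The numbers did not pair these libraries, since the deviations of same-numbered libraries correlated at -0.27, -0.04 and -0.29.

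The share of cells meeting the limits was 0.820% and 0.604% in E60_1 and E60_2 with at least 2 UMIs of SLC17A6, and 0.719% in E60_2 with cells thinned before the limits, where the 11 cortical factors summed to 120.0 CPM in place of 80.6. With thinned cells LHX9 was found in 18.1% and TAC1 in 33.0% of the members. E60_2 had 43 members, and a count of 0 there allows up to 10.1 CPM.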

Other observations

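Of the 22 hindbrain and spinal factors in the files, 3 were detected in the SLC17A6 neurons of E60_1 and 2 in those of E60_2, with sums of 22.4 and 16.8 CPM. The dividing-cell genes summed to 93.3 and 77.2 CPM in the SLC17A6 neurons, against 134 and 483 CPM in the GABAergic neurons and 428 and 535 CPM in the microglia. The growth-associated gene GAP43 was found in 185 of the 186 members and STMN2 in all 186.

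The transcripts SNCG (gamma-synuclein) and CRABP1, chosen after their values were seen, were at 490 and 662 CPM in E60_1 and at 561 and 1384 CPM in E60_2, above every other fetal library of whole cells, where they reached 116 and 260 CPM at most. SNCG was at 95.0 and 31.2 CPM in the GABAergic neurons of E60_1 and E60_2. The share of all genes above every other fetal library was not counted.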
